A study of Homo sapiens with 15 samples.

Results

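Integrins, laminins and collagens are the receptors and the main structural proteins by which cells hold on to their matrix, and their RNA levels were followed in 15 libraries from 2 established human cell lines. The genes were chosen by name alone: protein-coding genes whose symbol has the form of an integrin, laminin or collagen chain in the count tables of both lines. That gave 82 of the 35595 genes that both tables list: 41 collagen chains, 25 integrin chains (17 alpha and 8 beta), 12 laminin chains, and 4 genes that share only the letters of an integrin symbol. Those 4 are ITGB1BP1 and ITGB1BP2, which encode proteins that bind the ITGB1 tail, ITGB3BP, which encodes a centromere protein, and ITGBL1, which encodes a secreted protein with integrin-like repeats. Another 4 matching genes, ITGA8, COL19A1, COL9A1 and COL11A2, stood in the HEK293T table alone and were not compared.

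HEK293T is a line from human embryonic kidney that carries the SV40 large T antigen, and HuCCT1 is a line from a cholangiocarcinoma, a cancer of the bile duct epithelium. In HEK293T the labels give the groups SNRPD2KO, PUS7KO and Ctrl, and in HuCCT1 the groups SNRPD2KO and Ctrl, with 3 libraries in each group and knockouts made with CRISPR-Cas9. SNRPD2 encodes a core protein of the spliceosomal small nuclear ribonucleoproteins, and PUS7 encodes an enzyme that makes pseudouridine in RNA. The labels do not say what the Ctrl cells received, whether a knockout is 1 clone or a pool, or whether the 3 libraries of a group came from separate cultures, so p-values measure the spread between these libraries, which may be technical.

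Collagens are trimers of chains that form fibrils, networks or anchoring structures, and each laminin joins an alpha, a beta and a gamma chain into the sheet that organises a basement membrane. Type IV collagen builds the network beside that sheet. An integrin pairs an alpha with a beta chain in the cell membrane, and the pair decides the ligand. ITGA1, ITGA2, ITGA10 and ITGA11 pair with ITGB1 to bind collagens, ITGA3, ITGA6 and ITGA7 bind laminins, and ITGA5 and ITGAV bind fibronectin, vitronectin and related proteins. Epithelia add a firmer anchor, the hemidesmosome, in which ITGA6 and ITGB4 hold a laminin that contains LAMA3 and LAMB3, together with the transmembrane collagen COL17A1 and the anchoring fibril collagen COL7A1 below.

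HEK293T libraries held 7944276 to 11270267 counts in all, and HuCCT1 libraries 13776166 to 16795618. Levels are in CPM, counts relative to a library's total with TMM scaling. A count of 0 allows up to 3 counts, which came to 0.266 to 0.378 CPM in HEK293T and 0.179 to 0.218 CPM in HuCCT1. This limit was taken over library totals without TMM scaling and covers counting error only. RNA of SNRPD2 went against its label in both lines. In HEK293T it averaged 280.4 ± 31.9 CPM in libraries labelled SNRPD2KO and 182 ± 13.6 CPM in Ctrl (SD, n = 3 each). The HEK293T PUS7KO libraries were above Ctrl as well, with 266, 236 and 280 CPM of SNRPD2. In HuCCT1 SNRPD2 averaged 288 ± 29.4 CPM in libraries labelled SNRPD2KO and 154 ± 7.30 CPM in Ctrl (SD, n = 3 each). Every direction given for SNRPD2KO therefore belongs to the libraries so labelled. PUS7 followed its label, with 16.04 ± 2.24 CPM in PUS7KO and 26.5 ± 0.510 CPM in Ctrl. All 8 markers of bile duct epithelium were above 1 CPM in every HuCCT1 library. Their sum was 12174 to 13142 CPM in SNRPD2KO and 12543 to 12802 CPM in Ctrl. Summed markers of leukocytes, endothelium and stroma each stayed at or under 11 CPM in every library of both lines, and some of these low sums differed between groups, as given beside the counts. ACTN4, which encodes an actin crosslinker found in most cells, averaged 0.317 CPM in HuCCT1 SNRPD2KO and 0.2996 CPM in HuCCT1 Ctrl, and 0.0367 CPM or less in HEK293T, so a gene at 0 in these tables was not read as a silent gene.

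The levels of chains were set side by side per length. The length joins all annotated exons of a gene, and the forms that the cells make can be shorter. Ranks and ratios between genes are therefore approximate. Per kilobase of exon, the highest laminin in HEK293T was LAMC1, the gamma chain of most laminins, with 18.8 ± 1.68 CPM per kilobase in SNRPD2KO, 21.6 ± 0.867 in PUS7KO and 19.5 ± 1.40 in Ctrl (SD, n = 3 each). In HuCCT1 LAMB3 had 166 ± 6.63 CPM per kilobase in SNRPD2KO and 651 ± 17.7 in Ctrl. COL6A2 and COL6A1, chains of the beaded microfibril collagen, were the highest collagens in every group, at 12.03 ± 0.923 and 7.695 ± 0.418 CPM per kilobase in HEK293T SNRPD2KO and 78.2 ± 1.18 and 70.9 ± 1.80 in HuCCT1 SNRPD2KO. Among integrins ITGB1, the beta chain with the most partners, was highest in all HEK293T groups and in HuCCT1 Ctrl. ITGA3 was highest in HuCCT1 SNRPD2KO with 119.9 ± 6.39 CPM per kilobase, against 94.7 ± 5.58 for ITGB4 and 84.02 ± 4.05 for ITGB1.

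COL1A2, COL18A1 and ITGBL1 had no count in any HEK293T library, and 10 genes were too low to test in either line: COL1A2, COL3A1, COL5A3, COL6A5, COL8A2, COL20A1, COL22A1, COL28A1 and the leukocyte integrins ITGAX and ITGB7. Of the 82 genes, 60 passed the low-count filter in HEK293T and 49 in HuCCT1, 37 of them in both lines.

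In HEK293T cells, collagen and laminin chains were mostly higher in the libraries labelled SNRPD2KO and in PUS7KO than in Ctrl, while the median fold change of integrin chains lay near that of all genes. Of 60 genes tested, 23 were higher and 8 lower in SNRPD2KO at an adjusted p under 0.05 (edgeR quasi-likelihood test, Benjamini-Hochberg over all 15882 genes tested), where 26.9% of all genes were higher and 26.4% lower. The median log2 fold change over the 60 was 0.25, against 0.02 over all genes, and it was 0.10 with the trend over GC content removed and 0.14 without SNRPD2KO replicate 2. With no filter on low counts it was 0.12 over 79 genes, where all genes gave -0.19. In PUS7KO 26 were higher and 7 lower, where 25.6% of all genes were higher and 23.8% lower, with a median of 0.33 against 0.01. Both comparisons use the same 3 Ctrl libraries, so their values stand side by side and are not independent. RNA was taken from bulk cultures, so a change in every cell and a change in some of the cells cannot be told apart. The 2 groups did not overlap for 34 of the 60 genes in SNRPD2KO against Ctrl, beside 59.5% of all genes tested, and for 36 in PUS7KO against Ctrl, beside 57.2%.

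The summed level of 6 stroma markers moved with these counts, at 6.05 to 8.87 CPM in SNRPD2KO and 7.49 to 11 CPM in PUS7KO, against 4.29 to 5.45 CPM in Ctrl. The highest of the 6 in every HEK293T library was LUM, a proteoglycan of collagen fibrils. It had 5.47, 5.28 and 6.83 CPM in SNRPD2KO, 7.64, 7.01 and 6.04 CPM in PUS7KO and 1.93, 3.197 and 3.52 CPM in Ctrl. FAP was at 0 in every knockout library. DCN, PDGFRA, PDGFRB and THY1 went both ways, at 1.34 CPM or less in every HEK293T library. Summed leukocyte markers were 2.39 to 3.65 CPM in SNRPD2KO and 1.25 to 2.25 CPM in PUS7KO, against 1.36 to 2.05 CPM in Ctrl, and endothelial ones 0.322 to 0.77 and 0.0955 to 0.751 CPM, against 0.913 to 1.82 CPM. The part of these markers in the counts was not tested.

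**Figure D1:**
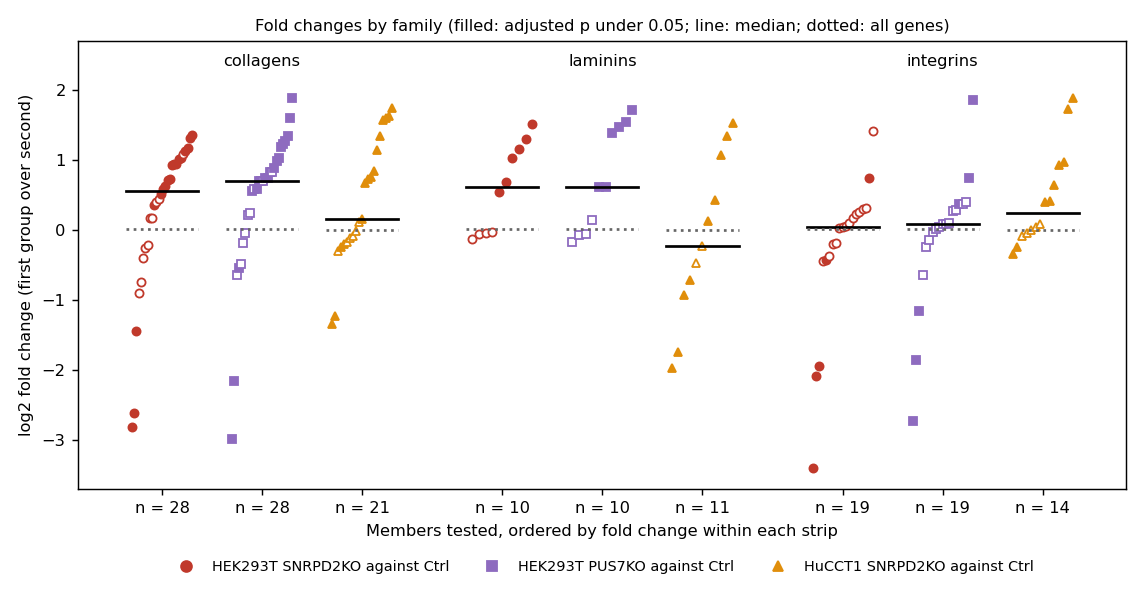
Log2 fold change of each collagen, laminin and integrin chain tested (points, filled where the adjusted p was under 0.05), with the median of the family (solid line) and of all genes tested (dotted line), for HEK293T SNRPD2KO against Ctrl, HEK293T PUS7KO against Ctrl and HuCCT1 SNRPD2KO against Ctrl. Laminin medians were 0.62 in both HEK293T comparisons and -0.23 in HuCCT1, and the lowest HEK293T value is that of the integrin ITGAM, -3.40 in SNRPD2KO.

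Of 10 laminin chains tested in HEK293T, LAMA1, LAMA2, LAMA4, LAMB1, LAMB2 and LAMC3 rose in both knockouts and the other 4 did not pass the test. Thus 60% rose and 0% fell in each comparison. Of all genes, 26.9% rose and 26.4% fell in SNRPD2KO, and 25.6% rose and 23.8% fell in PUS7KO. The beta chain LAMB2, a part of kidney and neuromuscular laminins (ENSG00000172037.14, chromosome 3, 49121114 to 49133118, minus strand, build hg38), had 50.1, 57.6 and 67.8 CPM in SNRPD2KO, 65.1, 62.95 and 73.9 CPM in PUS7KO and 20.3, 21.01 and 20 CPM in Ctrl. Every knockout library stood above every Ctrl library, and the log2 fold change was 1.52 ± 0.12 (adjusted p = 2.6e-08) in SNRPD2KO (± standard error here and below) and 1.72 ± 0.11 (adjusted p = 1.1e-08) in PUS7KO. LAMA1, the alpha chain of the first embryonic laminin, had 34.3, 30.5 and 46.4 CPM in SNRPD2KO, 43.8, 48 and 51.2 CPM in PUS7KO and 18.2, 19.4 and 17.1 CPM in Ctrl. It did not overlap between either knockout and Ctrl, with 1.03 ± 0.14 (adjusted p = 1.1e-05) in SNRPD2KO and 1.39 ± 0.14 (adjusted p = 6.1e-07) in PUS7KO. The exons of LAMA1 share 11.1% of their bases with genes of the opposite strand, and the tables do not say whether strand was used in counting.

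The remaining 4 laminin chains that rose were lower in level or change. LAMA2, the alpha chain of muscle laminin, had 7.83, 8.25 and 9.04 CPM in SNRPD2KO, 11.6, 11.6 and 9.68 CPM in PUS7KO and 4.29, 4.34 and 2.61 CPM in Ctrl. LAMC3, a gamma chain of narrower distribution, had 10.1, 9.24 and 12.7 CPM in SNRPD2KO, 12.1, 10.4 and 14.1 CPM in PUS7KO and 3.86, 4.57 and 4.66 CPM in Ctrl. Both stood apart from Ctrl in every knockout library. LAMA2 gave 1.16 ± 0.20 (adjusted p = 0.00013) in SNRPD2KO and 1.54 ± 0.20 (adjusted p = 7.5e-06) in PUS7KO. LAMC3 gave 1.30 ± 0.19 (adjusted p = 2.2e-05) and 1.48 ± 0.18 (adjusted p = 6.7e-06). LAMA4, the alpha chain of vascular laminins, had 25.97, 24.3 and 26.7 CPM in SNRPD2KO, 24.2, 28.3 and 20.5 CPM in PUS7KO and 15.2, 16.2 and 16.1 CPM in Ctrl. LAMB1, the most widely used beta chain, had 46.7, 49.9 and 64.9 CPM in SNRPD2KO, 55.97, 61.5 and 51.5 CPM in PUS7KO and 39.02, 37.1 and 34.3 CPM in Ctrl. Neither overlapped with Ctrl, and LAMA4 rose by 0.70 and 0.62 and LAMB1 by 0.55 and 0.61 on the log2 scale in SNRPD2KO and PUS7KO. The main gamma chain LAMC1, by contrast, had 148, 152 and 174 CPM in SNRPD2KO, 175, 180.1 and 189 CPM in PUS7KO and 175, 164 and 152 CPM in Ctrl. Both knockouts overlapped with Ctrl, and its log2 fold change of -0.05 ± 0.086 (adjusted p = 0.65) in SNRPD2KO and 0.15 ± 0.086 (adjusted p = 0.17) in PUS7KO did not pass the test.

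**Figure D2:**
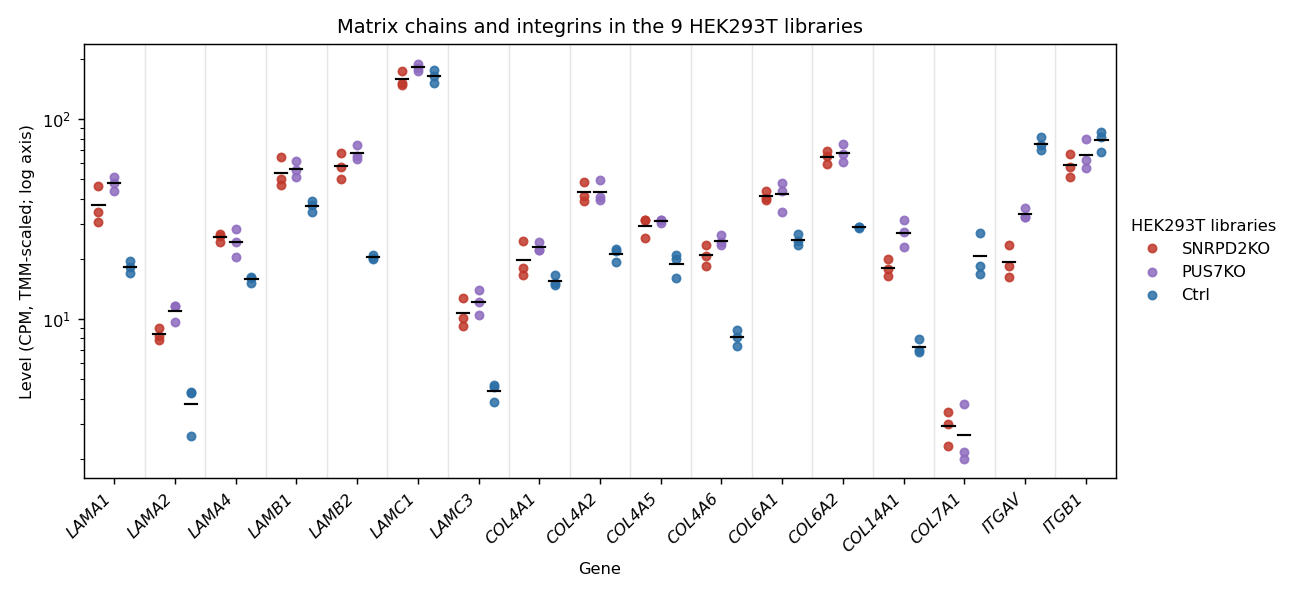
Level in CPM (log axis) of 17 laminin, collagen and integrin genes in each of the 9 HEK293T libraries, with SNRPD2KO, PUS7KO and Ctrl side by side for each gene and the mean of each group as a short line. LAMB2, COL4A6 and COL14A1 lie higher in both knockouts than in Ctrl, COL7A1 and ITGAV lie lower, and LAMC1 overlaps.

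Type IV collagen chains are encoded by 3 pairs of genes, each pair head to head on opposite strands around a shared promoter. In HEK293T the pairs COL4A1 with COL4A2 and COL4A5 with COL4A6 were higher in the knockouts, and neither COL4A3 nor COL4A4 passed the test. RefSeq starts (GRCh38.p14) lie 126 bases apart for COL4A1 and COL4A2, 418 bases apart for COL4A3 and COL4A4, and 379 bases apart for COL4A5 and COL4A6. The bases shown lie between the RefSeq starts of each pair, since both genes share them. Those of COL4A3 with COL4A4 and of COL4A5 with COL4A6 also lie outside exons of protein-coding transcripts. For COL4A1 with COL4A2 exons were not excluded, since annotated forms of COL4A2 also begin inside COL4A1. They come from chr13:110307158-110307283 (minus strand), chr2:227164454-227164564 (plus strand) and chrX:108439588-108439837 (plus strand). Capitals mark a GC box (GGGCGG, or CCGCCC on the other strand) or a CCAAT box (CCAAT, or ATTGG on the other strand).
COL4A1 and COL4A2: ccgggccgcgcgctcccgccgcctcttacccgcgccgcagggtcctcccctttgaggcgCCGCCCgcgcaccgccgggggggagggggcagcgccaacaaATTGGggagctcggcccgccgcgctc
COL4A3 and COL4A4: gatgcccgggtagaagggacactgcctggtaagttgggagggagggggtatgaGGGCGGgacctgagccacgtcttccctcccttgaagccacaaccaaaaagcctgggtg
COL4A5 and COL4A6: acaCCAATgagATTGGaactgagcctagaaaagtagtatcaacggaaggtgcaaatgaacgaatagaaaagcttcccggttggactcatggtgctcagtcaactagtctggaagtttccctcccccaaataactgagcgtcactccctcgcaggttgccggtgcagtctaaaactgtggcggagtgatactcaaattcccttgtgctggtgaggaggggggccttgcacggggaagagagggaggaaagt
The stretch between COL4A1 and COL4A2 held 1 match to the GC box and 1 to the CCAAT box, that of COL4A3 held 1 GC box, and that of COL4A5 held 2 CCAAT boxes and no GC box. Their GC content was 80.2%, 61.3% and 51.2%. RefSeq windows of 300 bases around gene starts were searched on both strands. Of all 35116 windows, 45% held the GC box and 34.6% the CCAAT box, beside 56.8% and 27% of the 74 windows that matched 58 of the 82 genes, so the matches are common and describe only the letters.

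COL4A6 (ENSG00000197565.17, chromosome X, 108155607 to 108439497, minus strand), a chain of smooth muscle and some epithelial basement membranes, had 18.4, 20.7 and 23.4 CPM in SNRPD2KO, 24.3, 23.5 and 26.2 CPM in PUS7KO and 8.15, 7.31 and 8.87 CPM in Ctrl. All knockout libraries stood above all Ctrl libraries, with 1.36 ± 0.13 (adjusted p = 4.1e-07) in SNRPD2KO and 1.60 ± 0.13 (adjusted p = 9.8e-08) in PUS7KO. Its partner COL4A5 (ENSG00000188153.14, chromosome X, 108439838 to 108697545, plus strand) had 31.1, 25.3 and 31.1 CPM in SNRPD2KO, 31.2, 30.1 and 31.2 CPM in PUS7KO and 19.9, 15.98 and 20.9 CPM in Ctrl, again without overlap, and rose by 0.62 and 0.70 on the log2 scale. COL4A2 (ENSG00000134871.19, chromosome 13, 110305812 to 110513209, plus strand), which joins COL4A1 in the common type IV trimer, had 41.3, 39.2 and 48.5 CPM in SNRPD2KO, 39.4, 40.7 and 49.9 CPM in PUS7KO and 21.98, 19.3 and 22.4 CPM in Ctrl. The rise was 1.02 ± 0.12 (adjusted p = 2.6e-06) in SNRPD2KO and 1.03 ± 0.12 (adjusted p = 3.2e-06) in PUS7KO, with no overlap. COL4A1 moved less, with 16.5, 18.04 and 24.5 CPM in SNRPD2KO, 22.2, 22.1 and 24.4 CPM in PUS7KO and 14.8, 15.1 and 16.6 CPM in Ctrl. In PUS7KO it rose by 0.56 ± 0.14 (adjusted p = 0.0031). In SNRPD2KO its lowest library lay below the highest Ctrl library, and the log2 fold change was 0.35 ± 0.14 (adjusted p = 0.044). That call was lost when SNRPD2KO replicate 3 was left out (0.18, adjusted p = 0.26), as it was for Ctrl replicate 1 (0.32, adjusted p = 0.12) and Ctrl replicate 2 (0.34, adjusted p = 0.10), and with the trend over GC content removed (0.13, adjusted p = 0.50). COL4A4 had 4.18, 4.73 and 4.09 CPM in SNRPD2KO, 5.44, 7.096 and 5.83 CPM in PUS7KO and 5.36, 5.59 and 4.55 CPM in Ctrl, and the groups overlapped. COL4A3 averaged 0.999, 1.096 and 1.71 CPM in the same groups.

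**Figure D3:**
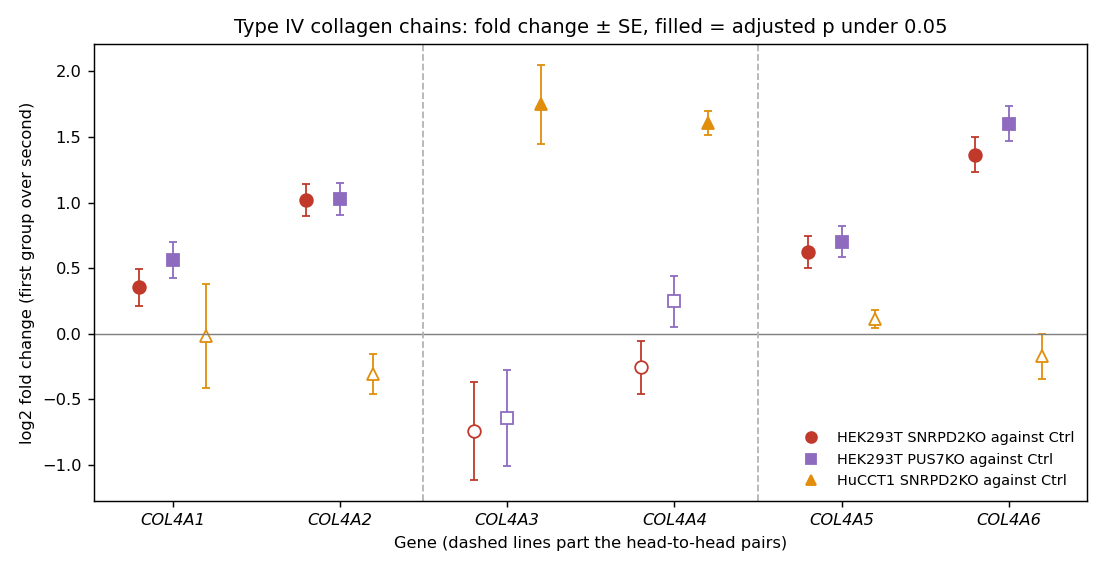
Log2 fold change (± standard error) of the 6 type IV collagen chains for HEK293T SNRPD2KO against Ctrl, HEK293T PUS7KO against Ctrl and HuCCT1 SNRPD2KO against Ctrl, filled where the adjusted p was under 0.05, with dashed lines between the head-to-head pairs. COL4A2, COL4A5 and COL4A6 are higher in both HEK293T knockouts, and COL4A3 and COL4A4 are higher in HuCCT1 SNRPD2KO.

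Across all collagens, 15 of 28 chains tested in HEK293T rose (53.6%) and 3 fell (10.7%) in SNRPD2KO, with a median log2 fold change of 0.55. In PUS7KO 16 rose (57.1%) and 3 fell (10.7%), with a median of 0.70. Of all genes, 26.9% rose and 26.4% fell in SNRPD2KO, and 25.6% rose and 23.8% fell in PUS7KO. The type VI chain COL6A2 (ENSG00000142173.17, chromosome 21, 46098112 to 46132848, plus strand) had 59.5, 65.3 and 69.5 CPM in SNRPD2KO, 67.2, 61.3 and 75.2 CPM in PUS7KO and 28.9, 28.9 and 28.4 CPM in Ctrl. Its partner COL6A1 had 39.3, 40.5 and 43.6 CPM in SNRPD2KO, 43.7, 34.4 and 47.9 CPM in PUS7KO and 23.4, 24.7 and 26.7 CPM in Ctrl. Neither overlapped with Ctrl, and COL6A2 rose by 1.17 ± 0.098 (adjusted p = 7.5e-08) and 1.24 ± 0.098 (adjusted p = 6.2e-08) and COL6A1 by 0.72 ± 0.12 (adjusted p = 7.9e-05) and 0.75 ± 0.12 (adjusted p = 6.9e-05) in SNRPD2KO and PUS7KO. The third chain of the usual type VI trimer, COL6A3, was scarce, at 1.05, 2.57 and 1.37 CPM, and COL6A6 fell to 0.346 and 0.506 CPM in SNRPD2KO and PUS7KO, against 2.28 CPM in Ctrl.

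COL14A1, a collagen that sits on the surface of fibrils, showed the largest rise among the collagens in PUS7KO, with 16.4, 17.7 and 19.9 CPM in SNRPD2KO, 22.8, 27.1 and 31.3 CPM in PUS7KO and 6.86, 6.96 and 7.96 CPM in Ctrl. The groups did not overlap, and the log2 fold change was 1.31 ± 0.15 (adjusted p = 2e-06) in SNRPD2KO and 1.90 ± 0.15 (adjusted p = 4.8e-08) in PUS7KO. COL5A2, a chain of the type V fibrils that set fibril diameter, had 22.3, 25.4 and 26.5 CPM in SNRPD2KO, 28.8, 25.5 and 30.4 CPM in PUS7KO and 15.9, 17.4 and 18.6 CPM in Ctrl and rose by 0.52 and 0.70 on the log2 scale. Its partner chain COL5A1 rose by 0.72 and 1.00, though the SNRPD2KO call was lost without SNRPD2KO replicate 3 (0.56, adjusted p = 0.053) and with the GC trend removed (0.40, adjusted p = 0.13). The transmembrane collagen COL25A1 (0.59 and 0.75) and COL26A1 (0.94 and 0.83) rose in both knockouts. So did the low chains COL11A1 and COL21A1, at 2.43 and 2.08 CPM in SNRPD2KO, 2.73 and 2.58 in PUS7KO and 1.13 and 1.002 CPM in Ctrl. The SNRPD2KO calls of both were lost when single libraries were left out. For COL11A1 these were SNRPD2KO replicate 3 (0.78, adjusted p = 0.16) and Ctrl replicate 1 (0.73, adjusted p = 0.13). COL21A1 lost its call without Ctrl replicate 2 (0.84, adjusted p = 0.07). The PUS7KO call of COL11A1 was lost without Ctrl replicate 1 (0.88, adjusted p = 0.07).

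COL7A1, the chain of the fibrils that anchor epithelial basement membranes, fell furthest among the collagens (ENSG00000114270.18, chromosome 3, 48564073 to 48595329, minus strand). It had 3.004, 2.31 and 3.41 CPM in SNRPD2KO, 2.01, 2.17 and 3.75 CPM in PUS7KO and 16.8, 18.5 and 26.9 CPM in Ctrl. Every knockout library lay below every Ctrl library, and the log2 fold change was -2.81 ± 0.24 (adjusted p = 8.9e-08) in SNRPD2KO and -2.99 ± 0.24 (adjusted p = 7.9e-08) in PUS7KO. COL12A1, another fibril surface collagen, had 1.93, 1.65 and 1.62 CPM in SNRPD2KO, 2.87, 2.92 and 4.37 CPM in PUS7KO and 4.18, 5.14 and 4.89 CPM in Ctrl. It fell in SNRPD2KO, with -1.45 ± 0.26 (adjusted p = 0.00022), whereas its value in PUS7KO, -0.49 ± 0.24 (adjusted p = 0.1), did not pass and overlapped with Ctrl.

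Of 19 integrin chains tested in HEK293T, 1 rose (5.26%) and 4 fell (21.1%) in SNRPD2KO, where 26.9% of all genes rose and 26.4% fell. In PUS7KO 3 rose and 3 fell (15.8% each), where 25.6% of all genes rose and 23.8% fell. The median log2 fold changes were 0.04 and 0.09, beside 0.02 and 0.01 for all genes. The clearest fall was that of ITGAV, the alpha chain of the vitronectin receptor and of the integrins that free TGF-beta (ENSG00000138448.13, chromosome 2, 186590010 to 186680901, plus strand). It had 18.4, 16.2 and 23.5 CPM in SNRPD2KO, 32.4, 35.8 and 32.6 CPM in PUS7KO and 80.9, 74.7 and 69.9 CPM in Ctrl. The 3 groups did not overlap, and the log2 fold change was -1.95 ± 0.12 (adjusted p = 3.7e-09) in SNRPD2KO and -1.16 ± 0.11 (adjusted p = 5.5e-07) in PUS7KO. VTN, the gene of vitronectin, fell as well, to 0.322 and 0.240 CPM in SNRPD2KO and PUS7KO, against 2.46 CPM in Ctrl. In HuCCT1, where ITGAV rose, VTN was also lower, with 0.573, 0.475 and 0.382 CPM in SNRPD2KO and 1.78, 1.58 and 1.05 CPM in Ctrl. The laminin receptor chain ITGA3 had 10.6, 10.8 and 10.8 CPM in SNRPD2KO, 12.1, 9.68 and 10.4 CPM in PUS7KO and 7.397, 5.25 and 6.48 CPM in Ctrl. It rose without overlap, by 0.75 ± 0.17 (adjusted p = 0.0011) in SNRPD2KO and 0.75 ± 0.16 (adjusted p = 0.0013) in PUS7KO.

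ITGB1, the partner of most of these alpha chains, had 57.8, 51.3 and 66.98 CPM in SNRPD2KO, 57.2, 79.6 and 62.1 CPM in PUS7KO and 68.8, 86.3 and 81.3 CPM in Ctrl. It lay below Ctrl in every SNRPD2KO library (-0.42 ± 0.13, adjusted p = 0.0096) and overlapped with Ctrl in PUS7KO (-0.25 ± 0.12, adjusted p = 0.11). The call in SNRPD2KO was lost when SNRPD2KO replicate 2 (-0.32, adjusted p = 0.069) or Ctrl replicate 2 (-0.34, adjusted p = 0.059) was left out, and with the GC trend removed (-0.12, adjusted p = 0.34). ITGA11, a receptor for fibrillar collagen, and the leukocyte chain ITGAM were low and fell in both knockouts, to 0.537 and 0.136 CPM in SNRPD2KO and 0.6605 and 0.215 CPM in PUS7KO, against 2.42 and 1.52 CPM in Ctrl. Other well expressed chains did not pass in SNRPD2KO. ITGA5, the fibronectin receptor chain, had 48.1, 56.4 and 54.4 CPM in SNRPD2KO, 43.7, 45.1 and 51.7 CPM in PUS7KO and 44.1, 46.1 and 45.7 CPM in Ctrl, with 0.23 ± 0.094 (adjusted p = 0.053) in SNRPD2KO and 0.05 ± 0.095 (adjusted p = 0.7) in PUS7KO. ITGAE, the chain that binds E-cadherin, had 49.5, 53.1 and 44.96 CPM in SNRPD2KO, 47.7, 47.8 and 45.6 CPM in PUS7KO and 45.99, 44.4 and 52.9 CPM in Ctrl, and all groups overlapped. ITGAE shares 7.59% of its exon bases with HASPIN and another gene of the opposite strand. ITGA6 passed in PUS7KO alone (0.37 ± 0.13, adjusted p = 0.027), a call lost when PUS7KO replicate 2 (0.27, adjusted p = 0.13) or Ctrl replicate 3 (0.31, adjusted p = 0.094) was left out.

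Between the HEK293T knockouts themselves few genes differed: of the 60 tested, 3 were lower and 0 higher in SNRPD2KO than in PUS7KO, where 3.20% of all genes were lower and 1.57% higher. At an unadjusted p under 0.05 edgeR gave 11 lower and 0 higher, and DESeq2 and limma voom also called 0 higher and 3 lower. ITGAV, given by library above, had a log2 fold change of -0.79 ± 0.12 (adjusted p = 0.0062), and this call held without each single library. COL14A1 differed by -0.58 ± 0.13 (adjusted p = 0.025) and COL6A3 by -1.30 ± 0.35 (adjusted p = 0.043). Both of these calls were lost without SNRPD2KO replicate 1 or 2, or PUS7KO replicate 2 or 3, with adjusted p-values of 0.059 to 0.15. COL6A3 also lost its call without either of the other knockout libraries.

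In HuCCT1 cells LAMB3, the beta chain of the hemidesmosomal laminin, fell in the libraries labelled SNRPD2KO, while the laminin receptors ITGB4 and ITGA3, the anchoring collagen COL7A1 and the other epithelial laminin chain LAMA5 rose. Of 49 genes tested, 25 were higher and 10 lower in SNRPD2KO than in Ctrl (edgeR quasi-likelihood test, Benjamini-Hochberg over 15007 genes), where 28.8% of all genes were higher and 28.4% lower. The median log2 fold change was 0.14, against 0.00 over all genes, but 0.40 over the 45 genes with at least 1 CPM in 3 libraries and 0.04 over all 82 with no filter on low counts, where all genes gave -0.08. For 38 of the 49 the groups did not overlap, beside 63.5% of all genes tested.

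LAMB3 (ENSG00000196878.15, chromosome 1, 209614870 to 209652425, minus strand) had 743, 787 and 803 CPM in SNRPD2KO and 3134, 3051 and 2968 CPM in Ctrl. Every SNRPD2KO library lay far below every Ctrl library, a log2 fold change of -1.97 ± 0.051 (adjusted p = 1.4e-09). The alpha chain LAMA3 averaged 593 ± 7.07 CPM in SNRPD2KO and 539 ± 7.30 CPM in Ctrl (SD, n = 3 each). Its rise of 0.14 ± 0.045 (adjusted p = 0.022) was lost without any 1 of the Ctrl libraries (adjusted p = 0.059 to 0.087). Per kilobase of exon, LAMB3 stood at 4.11 ± 0.116 times LAMA3 in SNRPD2KO, against 17.7 ± 0.537 times in Ctrl. The lengths used, 4.688 kilobases for LAMB3 and 14.68 for LAMA3, join all annotated exons. The size of the ratio thus depends on which forms are made, which was not measured. In HEK293T LAMB3 was low and was not tested, with 0.751, 0.440 and 0.683 CPM in SNRPD2KO, 0.286, 0.417 and 0.5204 CPM in PUS7KO and 3.86, 3.08 and 0.795 CPM in Ctrl.

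The upstream stretches of LAMB3 and COL7A1 are shown since both encode parts of the epithelial anchor and the first fell and the second rose in HuCCT1. They hold the bases outside exons of protein-coding transcripts before RefSeq starts in GRCh38.p14. For LAMB3 these are chr1:209652467-209652675 and chr1:209651395-209651624 (both minus strand), and for COL7A1 chr3:48595330-48595579 (minus strand). The first LAMB3 start is the one nearest to where the listed gene begins. The other, called second here, was chosen because its window holds an AP-1 match. A further RefSeq start of LAMB3 is not shown. Capitals mark the GC box and the CCAAT box as above, an AP-1 site with the letters TGANTCA, or a TATA box with the letters TATAAA, each on either strand.
LAMB3, first start: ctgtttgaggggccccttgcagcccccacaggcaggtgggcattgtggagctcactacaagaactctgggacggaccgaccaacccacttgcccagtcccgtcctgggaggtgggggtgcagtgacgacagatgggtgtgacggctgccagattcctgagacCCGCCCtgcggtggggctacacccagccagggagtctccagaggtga
LAMB3, second start: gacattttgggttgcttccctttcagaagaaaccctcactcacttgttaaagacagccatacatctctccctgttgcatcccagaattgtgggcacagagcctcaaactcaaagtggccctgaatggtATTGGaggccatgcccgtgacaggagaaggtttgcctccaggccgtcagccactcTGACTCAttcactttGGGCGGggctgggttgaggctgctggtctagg
COL7A1: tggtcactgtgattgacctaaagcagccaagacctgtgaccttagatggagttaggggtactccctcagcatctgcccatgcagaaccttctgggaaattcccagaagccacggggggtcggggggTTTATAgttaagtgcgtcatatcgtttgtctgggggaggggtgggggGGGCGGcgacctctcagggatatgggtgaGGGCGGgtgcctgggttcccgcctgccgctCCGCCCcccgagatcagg
The second LAMB3 stretch held 1 AP-1 match, 1 GC box and 1 CCAAT box, and the first held 1 GC box. The AP-1 match was fixed by the choice of that second start. The COL7A1 stretch held 3 GC boxes and 1 TATA box. An AP-1 match stood in 7.71% of all RefSeq windows and in 4 of the 74 windows of these gene families (5.41%), and a TATA box in 11.5% and in 10 (13.5%).

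Outside the hemidesmosomal laminin, LAMA5, LAMB1, LAMB2 and LAMC1 rose and the low chains LAMA2 and LAMB4 fell. LAMA5, the alpha chain of most epithelial basement membranes, had 305, 251 and 289 CPM in SNRPD2KO and 92.8, 102 and 97.3 CPM in Ctrl. LAMB1 had 186, 189 and 200.2 CPM in SNRPD2KO and 90.4, 91.8 and 89.99 CPM in Ctrl, and LAMB2 had 42.1, 41.02 and 47.8 CPM in SNRPD2KO and 15.8, 17.3 and 18.5 CPM in Ctrl. None of the 3 overlapped between the groups, with 1.53 ± 0.075 (adjusted p = 5.3e-08), 1.08 ± 0.053 (adjusted p = 5.3e-08) and 1.34 ± 0.091 (adjusted p = 4e-07). LAMC1 had 466, 479 and 488 CPM in SNRPD2KO and 348, 363 and 351 CPM in Ctrl and rose by 0.43 on the log2 scale. LAMA4, with 16.1, 18.1 and 19.5 CPM in SNRPD2KO and 22.8, 21.6 and 18.4 CPM in Ctrl, overlapped and did not pass (-0.23 ± 0.11, adjusted p = 0.095). LAMA2 was low, with 1.26, 0.9497 and 0.827 CPM in SNRPD2KO and 1.84, 2.01 and 1.95 CPM in Ctrl, and fell, with -0.92 ± 0.28 (adjusted p = 0.014), a call lost without SNRPD2KO replicate 3 (-0.78, adjusted p = 0.06). LAMB4, the last beta chain, fell to 0.318 CPM in SNRPD2KO, against 1.07 CPM in Ctrl, a call lost without Ctrl replicate 2 (-1.40, adjusted p = 0.067). LAMA1 overlapped near 1 CPM, with 0.688, 1.01 and 0.445 CPM in SNRPD2KO and 1.65, 0.792 and 0.524 CPM in Ctrl.

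Of 14 integrin chains tested in HuCCT1, 7 rose (50%) and 2 fell (14.3%), where 28.8% of all genes rose and 28.4% fell. Their median log2 fold change was 0.24. All 25 integrin chains summed to 3034 to 3181 CPM in SNRPD2KO, against 1652 to 1713 CPM in Ctrl. Most of that rise came from ITGB4 and ITGA3. ITGB4, the hemidesmosomal beta chain (ENSG00000132470.14, chromosome 17, 75721328 to 75757818, plus strand), had 669.7, 598 and 653 CPM in SNRPD2KO and 178, 167 and 172 CPM in Ctrl. ITGA3 (ENSG00000005884.18, chromosome 17, 50055968 to 50090481, plus strand), whose product binds the LAMA3 and LAMA5 laminins, had 1217, 1103 and 1205 CPM in SNRPD2KO and 355, 359 and 342 CPM in Ctrl. Both rose without overlap, ITGB4 by 1.89 ± 0.059 (adjusted p = 3.3e-09) and ITGA3 by 1.74 ± 0.055 (adjusted p = 3.4e-09). The partner chains moved less. ITGA6 had 167, 168 and 147 CPM in SNRPD2KO and 123, 122 and 119.5 CPM in Ctrl and rose by 0.40 ± 0.062 (adjusted p = 0.00021). ITGB1 had 512, 525 and 478 CPM in SNRPD2KO and 335, 391 and 412 CPM in Ctrl and rose by 0.41 ± 0.075 (adjusted p = 0.00063). Per kilobase, ITGA6 stood at 0.26 ± 0.0291 times ITGB4 in SNRPD2KO, against 0.731 ± 0.0229 times in Ctrl, and ITGA3 at 1.43 ± 0.131 times ITGB1, against 0.574 ± 0.0712 times.

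Changes among the other integrins of HuCCT1 went both ways. ITGAV had 66.4, 64.4 and 62.8 CPM in SNRPD2KO and 38.5, 43.7 and 41.8 CPM in Ctrl and rose by 0.64 ± 0.066 (adjusted p = 9e-06). ITGA1, a collagen receptor chain, had 7.05, 5.402 and 5.66 CPM in SNRPD2KO and 3.56, 3.05 and 2.92 CPM in Ctrl and rose by 0.93 ± 0.18 (adjusted p = 0.0013). ITGA1 shares 5.63% of its exon bases with PELO and another gene of the same strand. The groups did not overlap for either. ITGA2, the main epithelial collagen receptor chain, had 254, 264 and 239.9 CPM in SNRPD2KO and 311, 320.5 and 332 CPM in Ctrl and fell, with -0.35 ± 0.054 (adjusted p = 0.00025). The fibronectin receptor chain ITGA5, with 56.2, 56.1 and 52.5 CPM in SNRPD2KO and 66.5, 67.2 and 60.4 CPM in Ctrl, fell by 0.24, also without overlap. ITGB2, the beta chain known from leukocytes, rose by 0.97 to 35.6 ± 3.13 CPM in SNRPD2KO, against 18.2 ± 1.03 CPM in Ctrl, in libraries whose summed leukocyte markers were 0.115 to 0.127 CPM in SNRPD2KO and 0.122 to 0.572 CPM in Ctrl. ITGAE had 22.1, 31.2 and 27.7 CPM in SNRPD2KO and 26.4, 23.9 and 26.1 CPM in Ctrl. ITGAE (0.08), ITGB5 (-0.09), ITGB6 (-0.05) and ITGB8 (0.00) did not pass the test.

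**Figure D4:**
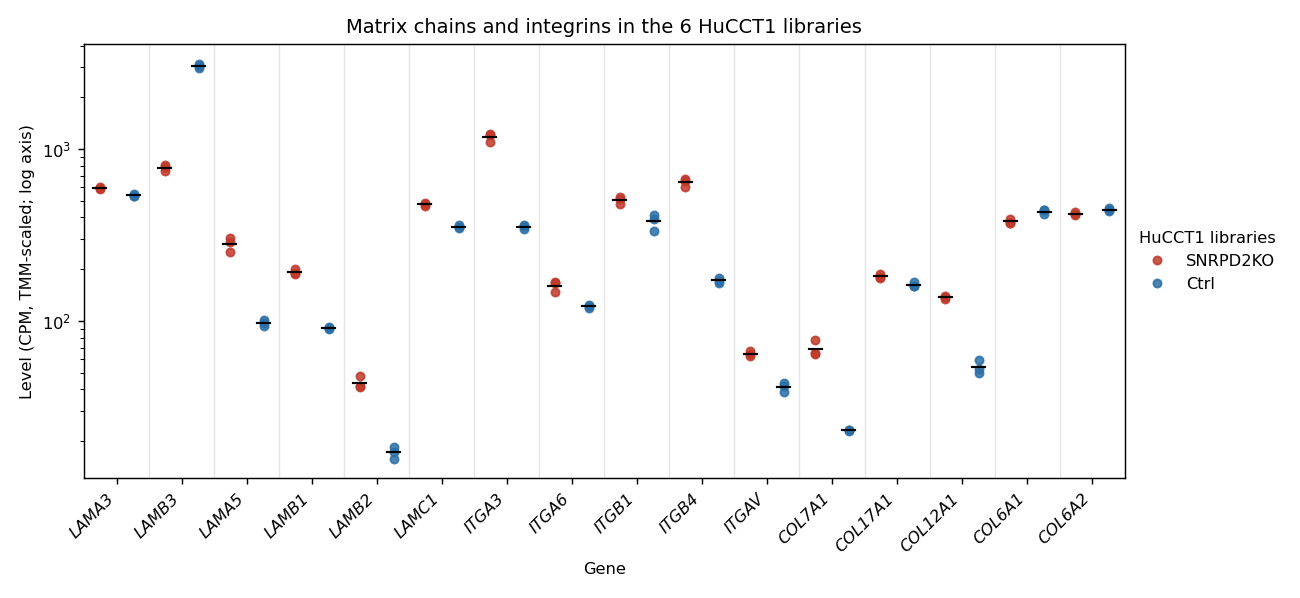
Level in CPM (log axis) of 16 laminin, integrin and collagen genes in each of the 6 HuCCT1 libraries, with SNRPD2KO left of Ctrl for each gene and the mean of each group as a short line. LAMB3 lies lower in SNRPD2KO, and LAMA5, LAMB2, ITGA3, ITGB4, COL7A1 and COL12A1 lie higher, each without overlap.

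Among HuCCT1 collagens 11 of 21 chains tested rose (52.4%) and 4 fell (19%), beside 28.8% and 28.4% of all genes, with a median log2 fold change of 0.17. The summed stroma markers were higher as well, 4.59 to 5.64 CPM in SNRPD2KO and 2.39 to 3.24 CPM in Ctrl. Only LUM was higher among them, with 3.899, 4.75 and 4.45 CPM in SNRPD2KO and 1.84, 1.04 and 1.197 CPM in Ctrl. DCN, PDGFRB, THY1, FAP and PDGFRA stayed under 1 CPM, and none of them averaged higher in SNRPD2KO. The part of these markers in the collagen counts was not tested. COL7A1 had 64.7, 64.2 and 77.8 CPM in SNRPD2KO and 23.2, 22.8 and 23.1 CPM in Ctrl, and COL12A1 had 139.8, 137 and 135 CPM in SNRPD2KO and 50.1, 59.5 and 52.2 CPM in Ctrl. Both rose without overlap, by 1.58 ± 0.084 (adjusted p = 8.6e-08) and 1.35 ± 0.070 (adjusted p = 7.4e-08). COL17A1, the collagen of the hemidesmosome itself, had 177, 189 and 181 CPM in SNRPD2KO and 160.1, 168 and 159.7 CPM in Ctrl. Its rise of 0.17 ± 0.052 (adjusted p = 0.018) was lost without Ctrl replicate 1 (adjusted p = 0.07) or replicate 3 (adjusted p = 0.077). COL13A1, a transmembrane collagen of adhesion sites, had 21.4, 24.7 and 22.3 CPM in SNRPD2KO and 8.13, 7.13 and 6.81 CPM in Ctrl and rose by 1.63 ± 0.11 (adjusted p = 3.9e-07).

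Among the type IV chains of HuCCT1 it was the pair COL4A3 and COL4A4 that passed the test. COL4A4, of the network that is best known from kidney glomeruli, had 35.3, 32.2 and 32.3 CPM in SNRPD2KO and 10.2, 12 and 10.5 CPM in Ctrl, and its partner COL4A3 had 5.28, 2.97 and 3.12 CPM in SNRPD2KO and 0.889, 1.22 and 1.27 CPM in Ctrl. Neither overlapped, and they rose by 1.61 ± 0.094 (adjusted p = 1.6e-07) and 1.75 ± 0.30 (adjusted p = 0.00046). COL4A5 had 42.4, 47.1 and 41.9 CPM in SNRPD2KO and 39.6, 40.7 and 40.99 CPM in Ctrl. COL4A6 had 4.07, 4.99 and 4.32 CPM in SNRPD2KO and 5.02, 5.604 and 4.41 CPM in Ctrl, and COL4A2 had 10.4, 8.49 and 8.46 CPM in SNRPD2KO and 11.8, 9.198 and 12.9 CPM in Ctrl. These 3 did not pass the test, with log2 fold changes of 0.12, -0.17 and -0.30, and COL4A1, with 2.12, 0.831 and 1.33 CPM in SNRPD2KO and 1.59, 1.89 and 0.823 CPM in Ctrl, did not pass either (-0.02 ± 0.40, adjusted p = 0.97). COL6A1, with 373, 373 and 389.9 CPM in SNRPD2KO and 441, 441 and 416 CPM in Ctrl, fell, with -0.19 ± 0.050 (adjusted p = 0.0062), without overlap. COL6A2, with 415, 428 and 419.6 CPM in SNRPD2KO and 456, 439 and 438 CPM in Ctrl, did not pass (-0.08 ± 0.047, adjusted p = 0.18). COL5A2 had 30.2, 29.7 and 31.8 CPM in SNRPD2KO and 16.4, 20.8 and 17.9 CPM in Ctrl and rose by 0.73. The fibrillar chain COL27A1 had 3.096, 3.21 and 4.13 CPM in SNRPD2KO and 8.196, 9.32 and 8.83 CPM in Ctrl and fell, with -1.34 ± 0.17 (adjusted p = 4e-05), without overlap. COL18A1, which carries endostatin and shares 16.4% of its exon bases with SLC19A1 on the opposite strand, rose by 0.67 to 46.2 ± 3.75 CPM in SNRPD2KO, against 28.99 ± 1.63 CPM in Ctrl. COL16A1 and COL1A1 rose by 0.76 and 0.85, and COL8A1 fell by 0.24. COL9A3 rose by 1.15, to 1.898 CPM in SNRPD2KO against 0.845 CPM in Ctrl. COL15A1 fell to 0.362 CPM in SNRPD2KO, against 0.843 CPM in Ctrl, a call lost without SNRPD2KO replicate 1 or 3 or Ctrl replicate 2 (adjusted p = 0.079 to 0.17).

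The response of the libraries labelled SNRPD2KO differed between the lines for 27 of 71 genes tested in a fit of 12 libraries. The fold change was higher in HuCCT1 than in HEK293T for 14 (19.7%) and lower for 13 (18.3%). These shares were close to the 19.8% and 20.9% of all 17617 genes. COL7A1 had the largest difference, 4.34 ± 0.23 (adjusted p = 4.4e-10), and it rose in HuCCT1 and fell in HEK293T. COL12A1 (2.75 ± 0.19, adjusted p = 1.1e-08), ITGAV (2.55 ± 0.15, adjusted p = 1.2e-09) and ITGB1 (0.79 ± 0.15, adjusted p = 0.00029) also passed in opposite directions in the same sense, and LAMA2 (-2.12 ± 0.35, adjusted p = 0.0001) and COL6A1 (-0.96 ± 0.10, adjusted p = 1.2e-06) passed in the other. The opposite call of ITGB1 rests on the HEK293T call that was lost without single libraries, and that of LAMA2 on the HuCCT1 call that was lost without 1.

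Further differences came from genes that passed in 1 line. LAMA5 (1.5 ± 0.15, adjusted p = 3.8e-07), ITGB4 (1.75 ± 0.32, adjusted p = 0.00025), COL4A4 (1.82 ± 0.20, adjusted p = 1.2e-06) and ITGA1 (1.06 ± 0.31, adjusted p = 0.012) had the higher fold change in HuCCT1, although ITGA1 lost this with the GC trend removed (0.53, adjusted p = 0.18). ITGB4 was at 1.57 CPM in HEK293T SNRPD2KO and 1.46 CPM in HEK293T Ctrl. COL4A2 (-1.37 ± 0.19, adjusted p = 1.8e-05), COL4A6 (-1.58 ± 0.23, adjusted p = 2.2e-05), COL6A2 (-1.30 ± 0.10, adjusted p = 2.9e-08), LAMA4 (-0.97 ± 0.16, adjusted p = 8.5e-05) and COL4A5 (-0.56 ± 0.15, adjusted p = 0.0054) had the lower one. LAMA1 gave -1.56 ± 0.46 (adjusted p = 0.011), a call lost without HuCCT1 Ctrl replicate 1 (-0.98, adjusted p = 0.12). ITGA3 (0.94 ± 0.14, adjusted p = 4.8e-05) and LAMB1 (0.48 ± 0.14, adjusted p = 0.011) rose in both lines and more in HuCCT1. LAMB2 rose in both with no difference past the threshold (-0.22 ± 0.15, adjusted p = 0.27), and so did COL5A2 (0.16 ± 0.16, adjusted p = 0.43) and COL13A1 (0.64 ± 0.38, adjusted p = 0.2). COL17A1 (2.2 ± 0.68, adjusted p = 0.015) and COL9A2 (-1.11 ± 0.36, adjusted p = 0.02) also differed. The call of COL17A1 was lost without HEK293T SNRPD2KO replicate 1 (1.67, adjusted p = 0.057) or 3 (1.53, adjusted p = 0.078), and that of COL9A2 without HEK293T Ctrl replicate 1 (-1.04, adjusted p = 0.052) or 3 (-0.94, adjusted p = 0.064). LAMB3 gave 0.01 (adjusted p = 0.99). That value rests on few counts in HEK293T and does not show that the responses were equal.

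**Figure D5:**
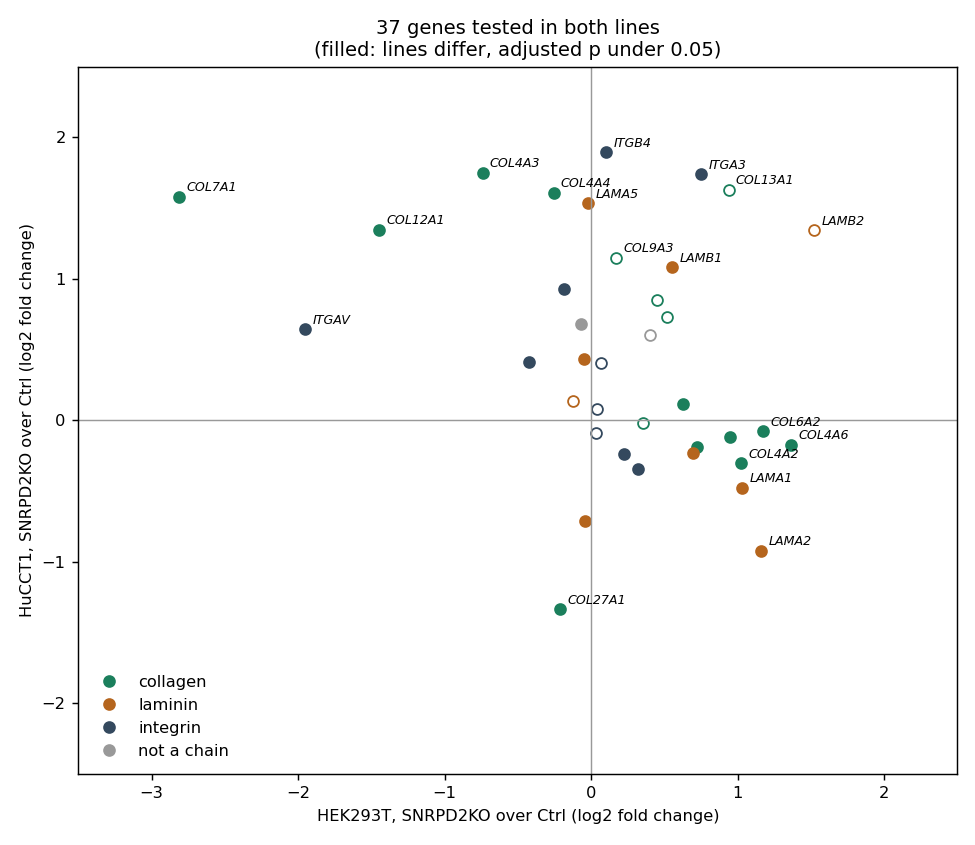
Log2 fold change of SNRPD2KO against Ctrl in HEK293T (horizontal axis) and HuCCT1 (vertical axis) for the 37 genes tested in both lines, coloured by family and filled where the lines differed at an adjusted p under 0.05. COL7A1, COL12A1 and ITGAV sit at the upper left, LAMA2 and LAMA1 at the lower right, and LAMB2, LAMB1 and ITGA3 at the upper right.

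More genes that fold, modify and link collagen chains rose than fell in HEK293T. Of 25 tested, 15 rose (60%) and 2 fell (8%) in SNRPD2KO, where 26.9% of all genes rose and 26.4% fell, and the median log2 fold change was 0.48. In PUS7KO 11 rose (44%) and 1 fell (4%), beside 25.6% and 23.8% of all genes, with a median of 0.26. FKBP10, a collagen chaperone, averaged 149.8 and 136 CPM in SNRPD2KO and PUS7KO, against 49.4 CPM in Ctrl (1.60 ± 0.086, adjusted p = 1.2e-09, and 1.46 ± 0.086, adjusted p = 3.3e-09). COLGALT2, a collagen galactosyltransferase, rose by 1.76 and 1.89, the crosslinking enzyme LOXL1 by 1.21 and 1.06, and P3H4, of a prolyl hydroxylase complex, by 0.99 and 0.89. PLOD2, the lysyl hydroxylase of collagen telopeptides, fell (-1.09 and -0.71). In HuCCT1 8 of 24 rose (33.3%) and 6 fell (25%), close to the 28.8% and 28.4% of all genes, with a median of 0.05. There PLOD2 rose by 0.49 and the crosslinking enzyme LOXL4 by 1.28, while the collagen chaperone SERPINH1 (-0.70) and the hydroxylation and folding enzymes P4HA2 (-0.63) and PPIB (-0.63) fell. The response of PLOD2 (1.54 ± 0.14, adjusted p = 1.3e-07) and SERPINH1 (-1.29 ± 0.14, adjusted p = 8.5e-07) differed between the lines.

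Proteins of the integrin adhesion complex went both ways. In HEK293T 10 of 28 rose (35.7%) and 4 fell (14.3%) in SNRPD2KO, where 26.9% and 26.4% of all genes did. In PUS7KO 10 rose (35.7%) and 3 fell (10.7%), where 25.6% and 23.8% did. About as large a share of the list as of all genes was thus called, with medians of 0.04 and 0.11 beside 0.02 and 0.01 for all genes tested. Talin 2 (TLN2) rose by 1.21 and 1.13, PARVB, which binds ILK and actin, by 1.26 and 1.00, SHARPIN, which holds integrins inactive, by 1.27 and 0.99, and CD151, a tetraspanin partner of laminin-binding integrins, by 0.92 and 0.71. LIMS1 (-0.92 and -0.58), paxillin, encoded by PXN (-0.67 and -0.53), and the adaptor BCAR1 (-0.60 and -1.06) fell. In HuCCT1 13 of 29 rose (44.8%) and 3 fell (10.3%), beside 28.8% and 28.4% of all genes (median 0.19). KANK2 rose by 1.34, SHARPIN by 0.95, filamin A (FLNA) by 0.93 and TNS3 by 0.71, and BCAR1 fell there too, by 0.97. VCL, the gene of vinculin, did not pass in any comparison with Ctrl.

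Other matrix ligands and basement membrane proteins included 7 of 15 that rose (46.7%) and 1 that fell (6.67%) in HEK293T SNRPD2KO, where 26.9% and 26.4% of all genes did. In PUS7KO 8 rose (53.3%) and 1 fell (6.67%), beside 25.6% and 23.8% of all genes. In HuCCT1 7 of 15 rose (46.7%) and 5 fell (33.3%), beside 28.8% and 28.4%. Their median log2 fold changes were 0.38, 0.60 and -0.05. Perlecan (HSPG2) rose in all 3 comparisons, by 1.05, 1.10 and 1.30. Fibronectin (FN1) rose by 0.52 and 0.89 in HEK293T SNRPD2KO and PUS7KO and fell in HuCCT1 (-0.75 ± 0.050, adjusted p = 4e-07), and the lines differed (-1.31 ± 0.16, adjusted p = 4.4e-06). NID2, a linker of laminin and type IV collagen, rose by 0.54 and 0.95 in HEK293T, the SNRPD2KO call being lost with the GC trend removed (0.36, adjusted p = 0.065). In HuCCT1 agrin (AGRN) rose by 1.40 and MATN2 by 1.82, and tenascin C (TNC) fell by 1.38.

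Collagen and laminin receptors outside the integrins, with the hemidesmosome linkers, gave 5 of 13 higher and 5 lower (38.5% each) in HEK293T SNRPD2KO, where 26.9% of all genes were higher and 26.4% lower. In PUS7KO 5 were higher (38.5%) and 3 lower (23.1%), beside 25.6% and 23.8% of all genes. In HuCCT1 5 were higher (38.5%) and 6 lower (46.2%), beside 28.8% and 28.4%. Their median log2 fold change was 0.21 in HEK293T SNRPD2KO, 0.00 in PUS7KO and 0.07 in HuCCT1. DDR2, a receptor kinase for fibrillar collagen, averaged 78.5 and 94.1 CPM in SNRPD2KO and PUS7KO, against 36.9 CPM in Ctrl (1.09 ± 0.12, adjusted p = 1.8e-06, and 1.35 ± 0.12, adjusted p = 2.5e-07), and the collagen uptake receptor MRC2 rose by 1.80 and 1.89. DST, whose epithelial form links ITGB4 to keratin, fell in HEK293T (-1.24 and -0.68) and rose by 1.43 in HuCCT1. Plectin (PLEC), the other linker, rose in HuCCT1 to 2926 ± 39.9 CPM in SNRPD2KO, against 1399 ± 54.5 CPM in Ctrl (1.06 ± 0.048, adjusted p = 3e-08). BCAM, a receptor for LAMA5 laminins, rose by 0.81, 1.21 and 1.61 in the 3 comparisons. The tables count reads per gene, so the epithelial and other forms of DST and PLEC cannot be told apart.

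The 4 genes that match only by their letters were counted with the rest above. ITGB3BP had 38.3, 46.5 and 41.3 CPM in SNRPD2KO, 54.7, 55.7 and 48.4 CPM in PUS7KO and 41.3, 46.01 and 45.4 CPM in Ctrl in HEK293T. In HuCCT1 it had 8.72, 7.78 and 8.84 CPM in SNRPD2KO and 4.83, 4.93 and 6.06 CPM in Ctrl. It rose in HuCCT1 by 0.68 ± 0.15 (adjusted p = 0.0025), and its HEK293T value in SNRPD2KO, -0.07 ± 0.098 (adjusted p = 0.56), did not pass. Its PUS7KO call (0.26 ± 0.097, adjusted p = 0.034) was lost without PUS7KO replicate 1 or 2 or Ctrl replicate 1 (adjusted p = 0.077 to 0.13). ITGB1BP1 rose by 0.40 in HEK293T SNRPD2KO and by 0.60 in HuCCT1, with 33.1% of its exon bases shared with ASAP2 on the opposite strand, and ITGB1BP2 fell in HEK293T to 0.331 and 0.522 CPM in SNRPD2KO and PUS7KO, against 2.398 CPM in Ctrl.

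Several calls at low levels rested on single libraries. COL13A1 was low in HEK293T, with 1.502, 3.41 and 4.18 CPM in SNRPD2KO, 4.01, 2.92 and 4.06 CPM in PUS7KO and 2.04, 1.37 and 1.36 CPM in Ctrl, and its SNRPD2KO call (0.94 ± 0.36, adjusted p = 0.037) was lost without any of 4 single libraries (adjusted p = 0.083 to 0.19). COL9A2, of cartilage fibril surfaces, had 2.25, 2.09 and 1.96 CPM in SNRPD2KO, 2.29, 1.84 and 1.67 CPM in PUS7KO and 0.965, 1.48 and 0.795 CPM in Ctrl in HEK293T. In HuCCT1 it had 4.99, 4.87 and 4.896 CPM in SNRPD2KO and 5.84, 5.91 and 4.19 CPM in Ctrl. It rose in HEK293T SNRPD2KO by 0.95 ± 0.34 (adjusted p = 0.026), a call lost without SNRPD2KO replicate 1 or Ctrl replicate 1 or 3 (adjusted p = 0.062 to 0.094). COL27A1 had 4.61, 7.92 and 8.62 CPM in SNRPD2KO, 6.69, 5.34 and 4.89 CPM in PUS7KO and 8.79, 8.33 and 7.501 CPM in Ctrl. Its lower value in PUS7KO (-0.54 ± 0.22, adjusted p = 0.05) was lost without PUS7KO replicate 2 or 3 or any 1 Ctrl library (adjusted p = 0.061 to 0.16). COL1A1 (0.59 ± 0.22, adjusted p = 0.038 in PUS7KO) lost its call without PUS7KO replicate 2 or 3 or any 1 Ctrl library (adjusted p = 0.068 to 0.082). The leukocyte chain ITGAL (1.87 ± 0.65, adjusted p = 0.024) lost it without PUS7KO replicate 2 or Ctrl replicate 1 or 3 (adjusted p = 0.055 to 0.099). COL6A3 lost its PUS7KO call (0.90 ± 0.34, adjusted p = 0.036) without PUS7KO replicate 1 or Ctrl replicate 2 or 3 (adjusted p = 0.094 to 0.15). In HEK293T 23 tested genes passed in neither comparison with Ctrl, among them COL2A1, COL10A1, COL23A1, COL24A1, ITGA2B, ITGA4, ITGA9 and ITGAD, and in HuCCT1 14 did not pass, among them ITGB3 and ITGBL1.

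Genes of these families are long and rich in introns. In HEK293T the 60 tested had a median of 31 introns and 7.91 kilobases of exon, against 7 introns and 4.56 kilobases over 15406 genes with a gene model in GENCODE 29, and a median GC content of 52% against 47.9%. Across genes, fold change and GC content had a Spearman rho of 0.29 among the 60 and 0.36 among all genes in SNRPD2KO against Ctrl, and 0.13 and 0.18 in PUS7KO against Ctrl. In HuCCT1 the rho was 0.18 among 49 and -0.02 among 14574. Fold change and intron number had a rho of 0.13, 0.15 and 0.18 among these genes, and -0.01, 0.00 and 0.25 among all genes, in the same 3 comparisons. These are descriptions across genes, which are not independent and share their libraries, and the part of GC content or gene structure in the changes was not tested beyond the fit with the GC trend removed.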

How the data were processed

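RNA was measured in 15 libraries by Illumina sequencing of stranded total RNA after ribosomal depletion, per the labels' protocols. The deposited tables give the authors' raw read counts per gene. The submitters' processing notes name cutadapt 4.2, HISAT2 2.2.1, RSEM and build hg38, and their roles and the annotation release are not given in the sources used here. Groups come from the labels. Each line was fitted separately over all its genes in edgeR 4.0.16 (R 4.3.3) with TMM factors, the default filter on low counts (10 counts in enough libraries, 15 in all) and the quasi-likelihood test. Adjusted p-values are Benjamini-Hochberg over all genes tested, with a threshold of 0.05. The difference between lines is the interaction term in a fit of 12 libraries. Standard errors are the size of the fold change over the root of the test's F value. They are unreliable where the fold change is close to none. The fit was tested on simulated data. CPM divides counts by TMM-scaled totals, and CPM per kilobase also by the joined length of all exons of a gene in GENCODE 29. The biological coefficient of variation was 10.8% in HEK293T and 10.1% in HuCCT1. Counting limits cover counting error only.

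The genes and the pathway lists were chosen with earlier results of these data known. Values by library are given for genes with an adjusted p under 0.05, a log2 fold change of at least 1 in size and at least 5 CPM, for genes that differ between the lines with at least 5 CPM, and for the 3 highest of each family per kilobase in each line. From each pathway list up to 4 genes per direction could be named. VTN and VCL, and the fold changes of named list genes in further comparisons, fall outside that rule and were chosen after their values were seen. Replicates of a group differed by 3.42 to 12.9 times the counting variance, so none was a repeated deposit. Alternatives were other size factors, other filters, DESeq2 1.42.0, limma voom (limma 3.58.1), a replicate block, removal of a trend with GC content, a test against 1.5-fold, a fit on the compared groups alone, and leaving out each library. Promoter windows are RefSeq's (GRCh38.p14, 250 bases before to 50 after a start) and matched 58 of the 82 genes. Counts and medians cover all genes tested, and the values of 1 gene are not reported here.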

Additional observations from a re-analysis of the deposited data

Results flagged for a closer look

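The response to SNRPD2KO differed between HuCCT1 and HEK293T for 27 of 71 genes tested (edgeR quasi-likelihood interaction test, adjusted p under 0.05). The fold change was higher in HuCCT1 for 19.7% and lower for 18.3%, close to the 19.8% and 20.9% of all 17617 genes. Each difference is given as the log2 fold change in HuCCT1 minus that in HEK293T. Among collagens the values were 4.34 for COL7A1, 2.75 for COL12A1, 2.44 for COL4A3, 2.2 for COL17A1 and 1.82 for COL4A4 on the higher side. On the lower side they were -1.58 for COL4A6, -1.37 for COL4A2, -1.30 for COL6A2, -1.17 for COL27A1, -1.11 for COL9A2, -0.96 for COL6A1 and -0.56 for COL4A5.

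Among integrins the values were 2.55 for ITGAV, 1.75 for ITGB4, 1.06 for ITGA1, 0.94 for ITGA3 and 0.79 for ITGB1, against -0.71 for ITGA2 and -0.51 for ITGA5. ITGB3BP, which is not an integrin chain, gave 0.71. Among laminins they were 1.5 for LAMA5, 0.48 for LAMB1 and 0.44 for LAMC1, against -2.12 for LAMA2, -1.56 for LAMA1 and -0.97 for LAMA4. Some of these values rest on a low level in HEK293T or HuCCT1, and the part of that level in the differences was not tested. COL17A1 averaged under 1 CPM in each HEK293T group. COL4A3 and COL9A2 averaged 0.999 and 2.10 CPM in HEK293T SNRPD2KO and 1.71 and 1.08 CPM in HEK293T Ctrl. ITGB4 had 0.966, 2.2 and 1.54 CPM in HEK293T SNRPD2KO and 1.07, 1.26 and 2.05 CPM in HEK293T Ctrl. LAMA1 had 0.688, 1.01 and 0.445 CPM in HuCCT1 SNRPD2KO, and LAMA2 had 1.26, 0.9497 and 0.827 CPM.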

How the results depend on the processing

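Called values of the 82 genes were computed again under each alternative: 129 values gave 2160 results, of which 1996 kept their direction and side of the threshold, 164 kept the direction but no longer passed, and 0 changed direction. For genes of the pathway lists, 3042 of 3385 results kept both, 343 kept the direction alone and 0 changed direction. The test against a 1.5-fold change left 8 genes higher and 7 lower in HEK293T SNRPD2KO against Ctrl. In PUS7KO against Ctrl it left 9 higher and 6 lower. Of all 15882 genes it called 2988 and 2245 in these comparisons. It left 0 higher and 0 lower in SNRPD2KO against PUS7KO. In HuCCT1 SNRPD2KO against Ctrl it left 12 higher and 3 lower, with 2801 of 15007 genes called. The difference between lines kept 8 higher and 7 lower, with 2963 of 17617 genes called. This test asks for more than a change. Without a filter on low counts 5 genes were lower in SNRPD2KO against PUS7KO, and the cause was not tested.

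Leaving out single libraries gave 20 to 24 genes higher and 7 to 10 lower in HEK293T SNRPD2KO against Ctrl, and 22 to 26 higher and 6 to 8 lower in PUS7KO against Ctrl. It gave 0 higher and 1 to 4 lower in SNRPD2KO against PUS7KO, 23 to 25 higher and 8 to 11 lower in HuCCT1, and 14 to 17 higher and 12 to 14 lower in the difference between lines. The count of 1 came without SNRPD2KO replicate 1 or 2 or PUS7KO replicate 2 or 3.

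The replicate numbers of the labels did not pair the libraries: deviations from group means correlated at -0.09 to 0.04 for same-numbered and -0.09 to 0.13 for other HEK293T pairs, and at -0.04 to -0.01 and -0.03 to 0.04 in HuCCT1. With the number as a replicate block, 22 genes were higher and 8 lower in HEK293T SNRPD2KO, 26 and 6 in PUS7KO, 0 and 3 in SNRPD2KO against PUS7KO, 24 and 10 in HuCCT1, and 15 and 13 in the difference between lines. At these depths a gene near 1 CPM rests on few counts, which limits what its fold change can show.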
